A study of Homo sapiens with 6 samples.

Results

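The KEAP1-NRF2 genes examined here were 10 genes of the cell's antioxidant response, chosen by symbol: NFE2L2, KEAP1, HMOX1, NQO1, GCLC, GCLM, SLC7A11, TXNRD1, SRXN1 and GSR. They are 10 of the 60671 gene identifiers counted in each sample, and all 10 passed the filter on low counts that left 17649 genes for testing. Polyadenylated RNA was sequenced from EndoC-βH1, a line of human β cells derived from fetal pancreas and immortalised with a viral oncogene, in 3 samples treated with the vehicle DMSO and 3 treated with 1 µM AZD7762, an inhibitor of the checkpoint kinases CHEK1 and CHEK2. The comparison asks how the drug changed transcripts during a glucose-stimulated insulin secretion experiment. A starvation step of 1 h (0.5 mM glucose) came before a stimulation of 1 h in both groups, with drug or vehicle present throughout. The stimulation used 0.5 or 20 mM glucose, and which of them each library received is not given in the labels, so glucose was not tested. Both groups were grown with 50 µM 2-mercaptoethanol, a thiol reductant, 6.7 ng/ml selenite, a source of the selenium that TXNRD1 protein contains, and 10 mM nicotinamide. The line is a single one. The study's methods describe its in vitro replicates in general as independent, and the labels do not say whether these 3 samples of a group came from separate cultures, so the p-values measure the spread between these samples.

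NRF2, the protein of NFE2L2, is a transcription factor that is kept low in unstressed cells, because KEAP1 presents it to the CUL3-RBX1 ubiquitin ligase. Oxidants and electrophiles modify cysteines of KEAP1, NRF2 then escapes degradation, pairs with a small MAF protein (MAFF, MAFG or MAFK) and binds antioxidant response elements. The genes it turns on import cystine (SLC7A11), make glutathione (GCLC and GCLM), reduce oxidised glutathione and thioredoxin with NADPH (GSR and TXNRD1), repair peroxiredoxins (SRXN1), reduce quinones (NQO1) and break down heme (HMOX1). Pancreatic β cells are known for low levels of several peroxide-removing enzymes. Because NRF2 is governed mainly through its protein, transcript counts do not measure its activity.

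The core of the antioxidant response element, TGACNNNGC, was looked for on both strands of the RefSeq promoter windows, each running from 250 bases before a gene's start to 50 after it (GRCh38.p14). This core overlaps the AP-1 motif when its free bases complete TGACTCA, which they did in none of the matches in the 10 genes. Windows were found for 7 of the 10 genes, with HMOX1, SLC7A11 and GSR not among them. The core stood in 4 of the 10 windows of these genes, in KEAP1, GCLM and TXNRD1, and in 13.3% of all 35116 promoter windows. In MAFF, described below for its change with AZD7762, it stood in 1 of 2 windows. In MAFG, described below for the same reason, it stood in 0 of 1, and in BACH1 in 0 of 3. MAFK had no window. Over the 12 partners and regulators of NRF2 listed below, it stood in 2 of 17 windows (11.8%). These sequences are shown because the element is where NRF2 and small MAF proteins bind. A single match per gene is given on the strand of that gene, with the core in capitals. Those printed all read as the reverse complement of the core, and for KEAP1 and TXNRD1 matches in the other orientation were not printed. Positions are those of the printed bases.
KEAP1, chr19:10502782-10502814, minus strand: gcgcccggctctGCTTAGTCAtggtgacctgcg
GCLM, chr1:93909444-93909476, minus strand: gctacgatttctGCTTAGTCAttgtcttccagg
TXNRD1, chr12:104286918-104286950, plus strand: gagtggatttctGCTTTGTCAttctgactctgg
MAFF, chr22:38201860-38201892, plus strand: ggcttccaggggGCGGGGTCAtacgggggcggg
The cores of KEAP1 and GCLM were the same 9 bases, and lay 31 and 34 bases before the start. That of TXNRD1 lay 102 bases before the start of its second window. The other window of TXNRD1 held 2 further matches, 1 as the core itself and 1 as its reverse complement. The KEAP1 window held 1 further match, as the core itself. A match is a run of letters and not a shown binding site.

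The 6 libraries held between 20486391 and 29402440 counts on genes, and a count of 3, used as the floor of detection, was worth 0.102 to 0.146 CPM. CPM are a gene's counts relative to the library total, and normalized CPM use totals scaled by edgeR's TMM factors. This floor covers counting error only, whereas the 95% intervals given for each gene come from the fit and include the spread between samples. Chi-square per gene between samples of a group was 4.92 to 9.53, above sampling noise. Mitochondrial genes held 1.57%, 2.13% and 2.12% of the counts in the DMSO replicates and 2.26%, 2.28% and 2.63% in the AZD7762 replicates, so this share was higher in every AZD7762 library, and its part in the results below was not tested. Markers of β cells were present, with INS at 1016 to 1663 normalized CPM in the 6 samples. Of the markers of other cell types, SST of δ cells was at 202 to 265, IRX2 of α cells at 64.9 to 81.3, KRT19 of duct cells at 23.8 to 29.6 and COL1A1 of mesenchymal cells at 10.2 to 15.8. The acinar marker CPA1 was at 21.0 to 22.6 with DMSO and 24.7 to 27.5 with AZD7762, without overlap (edgeR adjusted p = 0.308), whereas the defining acinar genes PRSS1 and CELA3A were at 0 in every library. SST also did not overlap, at 202 to 227 with DMSO and 242 to 265 with AZD7762 (edgeR adjusted p = 0.16). Of the 8 β cell markers only the transcription factor gene MAFA was called, and it rose by 1.24 on the log2 scale (adjusted p = 0.000133, edgeR). NEUROD1 (-0.23, adjusted p = 0.182, edgeR) and SLC30A8 (-0.13, adjusted p = 0.518, edgeR) were lower, and PDX1 (0.09, adjusted p = 0.632, edgeR) and NKX6-1 (0.15, adjusted p = 0.423, edgeR) higher, in all 3 AZD7762 samples than in any DMSO sample, and these 4 were not called. In bulk RNA, fewer cells of a type and less RNA per cell cannot be told apart.

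None of the 10 genes was called between AZD7762 and DMSO by edgeR's quasi-likelihood test. Its p-values were adjusted by Benjamini and Hochberg's method over all genes tested, with a threshold of 0.05. DESeq2 called 0 of the 9 that it gave an adjusted p for. Across all genes, 125 (0.708%) were called, 63 (0.357%) higher and 62 (0.351%) lower with AZD7762. Against that background 0 of 10 is not a result about these genes in itself, and their intervals say more. Of the 10 genes, 5 had a higher and 5 a lower fitted value (3 to 5 higher under the other library scalings), with a median log2 fold change of -0.01, against 0.01 over all genes tested. At an unadjusted p under 0.05 there was 1 of the 10, SLC7A11, and 9.68% of all genes. The same gene was the 1 of 10 whose groups did not overlap, which held for 15.0% of all genes (8.25% lower, 6.79% higher). With the replicate number as a block, 378 genes in place of 125 were called, still with 0 of the 10, and the smallest adjusted p among them was that of SLC7A11, 0.165.

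**Figure D1:**
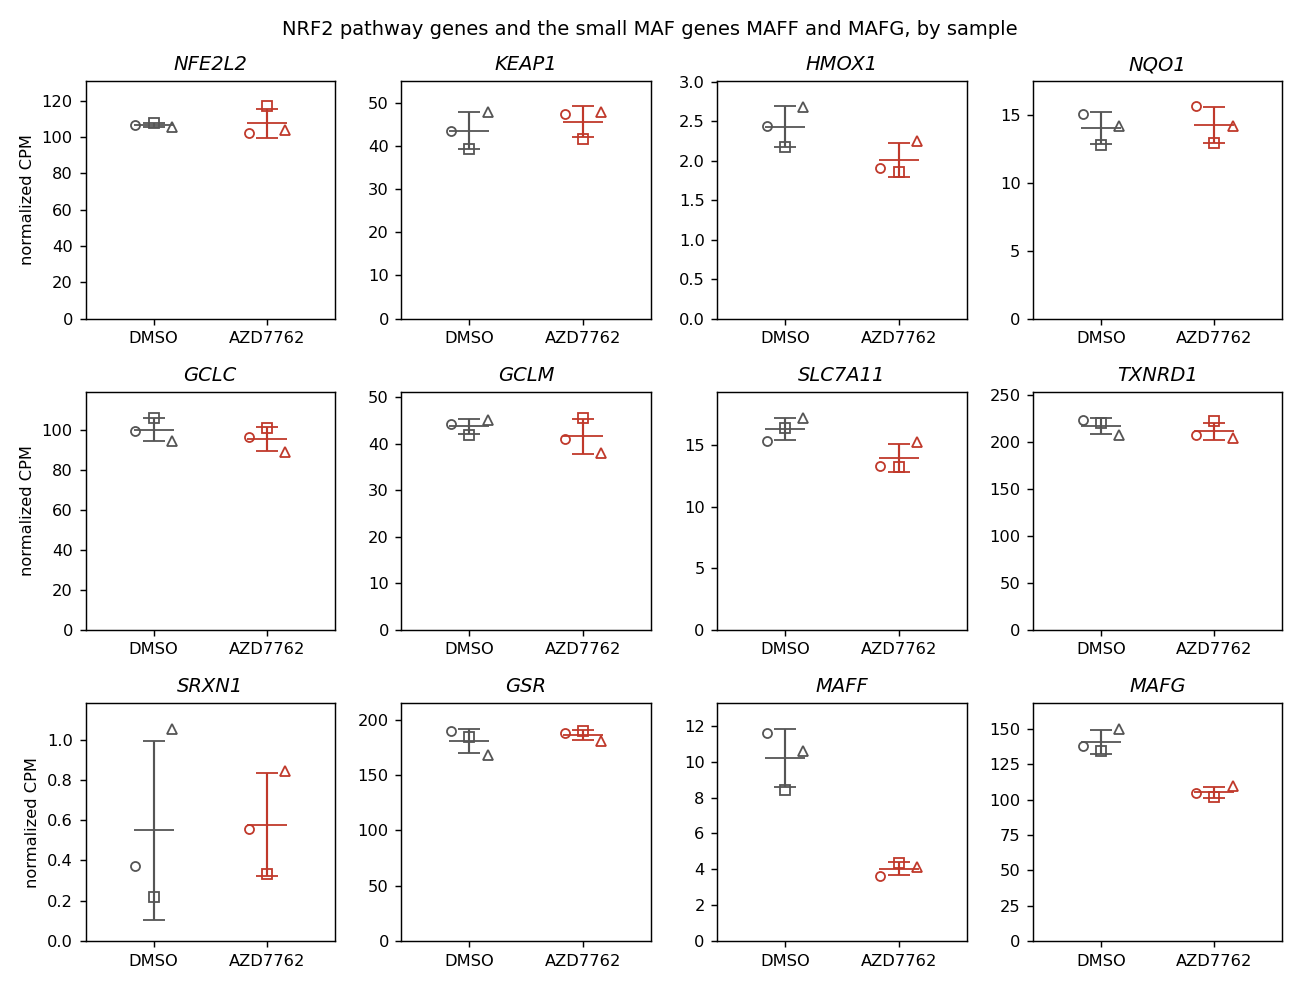
Normalized CPM (vertical axes, from 0) of the 10 NRF2 pathway genes and of MAFF and MAFG in the 3 DMSO samples (grey) and the 3 AZD7762 samples (red). Circles, squares and triangles are replicates 1, 2 and 3, and the horizontal bar with whiskers is the mean ± SD. The groups overlap in 9 of the 10 pathway genes, not in SLC7A11, and MAFF and MAFG are lower in all 3 AZD7762 samples.

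Levels between genes were compared per length with DMSO, as TPM, counts per base of summed exon length scaled to the same total in each sample. The reductases of oxidised glutathione and thioredoxin, GSR and TXNRD1, stood at the top. GSR had 214 ± 12.7 TPM (SD, n = 3) and TXNRD1 138 ± 5.33, with no overlap between them. KEAP1 (51.9 ± 5.07) and GCLC (49.7 ± 2.85) followed, and their 3 values overlapped. GCLM had 34.3 ± 1.32, NFE2L2 30.3 ± 0.282 and NQO1 20.2 ± 1.64, each apart from its neighbours. Lowest were SLC7A11 at 7.22 ± 0.418, HMOX1 at 4.50 ± 0.477 and SRXN1 at 0.927 ± 0.750, again without overlap between neighbours. Several of these places depended on the length used. The summed exons of NFE2L2 span 14975 bases and its canonical transcript 2446, and with canonical lengths, an alternative chosen after these values were seen, it had 112 TPM and ranked 3 of 10 in place of 6. KEAP1 then ranked 5 in place of 3, clear below GCLC, and GCLM 6 in place of 5. With canonical lengths GSR (144 to 159 TPM) overlapped TXNRD1 (140 to 148), and SLC7A11 (4.06 to 4.64) overlapped HMOX1 (3.62 to 4.49). Among its partners, MAFG had 115 ± 6.86 TPM (71.7 by canonical length), BACH1 68.0 ± 1.14, MAFF 7.76 ± 1.23 and MAFK 3.51 ± 1.09 by summed exon length.

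**Figure D2:**
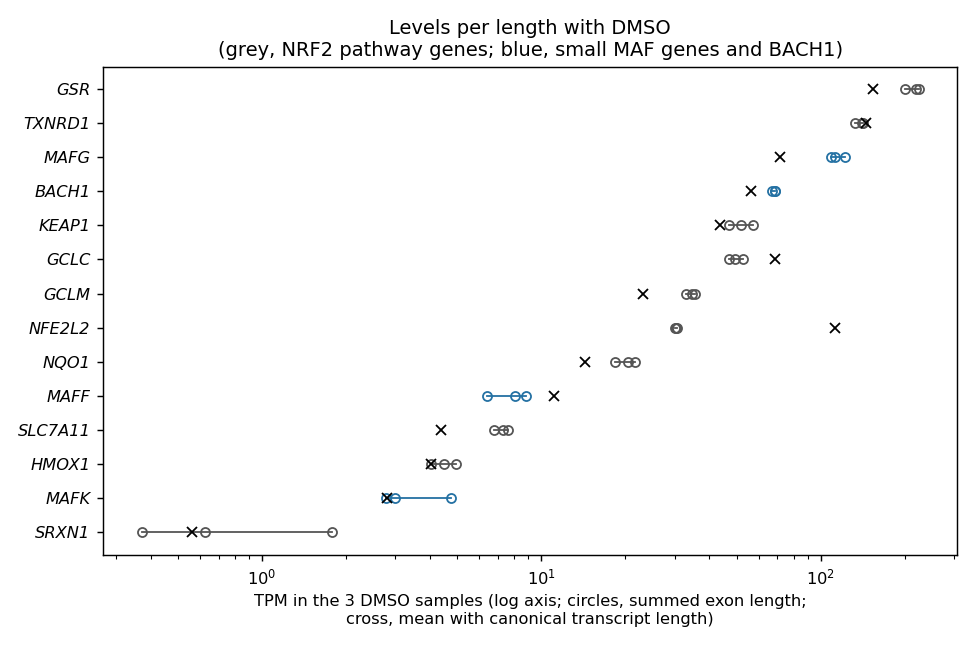
TPM with DMSO (log axis) of the 10 NRF2 pathway genes (grey), the small MAF genes and BACH1 (blue). Circles are the 3 DMSO samples by summed exon length, joined by a line, and crosses the mean by canonical transcript length. GSR and TXNRD1 are highest and SRXN1 lowest by both lengths, and the cross of NFE2L2 lies far to the right of its circles.

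The regulator and its sensor came first. NFE2L2 (ENSG00000116044, chromosome 2 of GRCh37, 178083395 to 178257484, minus strand) had 107, 107 and 105 normalized CPM in DMSO replicates 1, 2 and 3 and 102, 117 and 104 in AZD7762 replicates 1, 2 and 3. AZD7762 replicate 2 was the highest sample and replicate 1 the lowest, so the groups overlapped. The log2 fold change was 0.01 ± 0.06 (SE), with an edgeR adjusted p of 0.966 and a 95% interval from -8.29% to 11.2%. Of its exon length, 13.6% is shared with a gene on the same strand and 24.8% with genes on the opposite one, so its counts are uncertain.

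KEAP1 (ENSG00000079999, chromosome 19, 10596801 to 10614234, minus strand) had 43.5, 39.3 and 47.7 normalized CPM with DMSO and 47.4, 41.6 and 47.8 with AZD7762. Replicate 2 was the lowest of its group in both, and the groups overlapped. KEAP1 had a log2 fold change of 0.07 ± 0.08 (edgeR adjusted p = 0.840), with an interval from -7.37% to 19.1%, and its sign turned when trends with GC content and length were taken out (-0.01).

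Glutathione synthesis begins with cystine import and with glutamate-cysteine ligase. SLC7A11, the light chain of the cystine-glutamate antiporter (ENSG00000151012, chromosome 4, 139085251 to 139163503, minus strand), had 15.4, 16.4 and 17.2 normalized CPM with DMSO and 13.3, 13.3 and 15.3 with AZD7762. All 3 AZD7762 samples lay below all 3 DMSO samples, by a narrow margin between AZD7762 replicate 3 and DMSO replicate 1. The log2 fold change was -0.23 ± 0.09, with an unadjusted p of 0.0291 and an adjusted p of 0.447 in edgeR, and the 95% interval ran from -25.5% to -1.86%. With GC and length trends taken out the log2 fold change was -0.17 (unadjusted p = 0.0629, edgeR), and DESeq2 gave an unadjusted p of 0.0539. With the replicate number as a block the unadjusted p was 0.0126 (edgeR). The difference did not pass the test over all genes in any of these fits. An antisense gene, SLC7A11-AS1, shares 8.97% of its exon length. SLC3A2, the heavy chain that carries the antiporter to the membrane, had a log2 fold change of -0.08.

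GCLC, the catalytic subunit of the ligase (ENSG00000001084, chromosome 6, 53362139 to 53481768, minus strand), had 99.7, 106 and 94.9 normalized CPM with DMSO and 96.9, 101 and 89.3 with AZD7762. The groups overlapped, and replicate 2 was the highest and replicate 3 the lowest in each. Its log2 fold change was -0.07 ± 0.07 (edgeR adjusted p = 0.805), with an interval from -13.7% to 5.67%. Other genes share 6.14% of its exon length on the same strand and 3.54% on the opposite one.

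GCLM, the modifier subunit that eases feedback by glutathione (ENSG00000023909, chromosome 1, 94350755 to 94375012, minus strand), had 44.2, 41.8 and 45.1 normalized CPM with DMSO and 41.1, 45.6 and 38.0 with AZD7762. AZD7762 replicate 2 was above every DMSO sample and the other 2 below. Its log2 fold change was -0.07 ± 0.08 (edgeR adjusted p = 0.812), with an interval from -15.1% to 6.63%.

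The balance of the 2 subunits was compared directly. The ratio of GCLM to GCLC counts was 0.443, 0.393 and 0.475 with DMSO and 0.424, 0.450 and 0.425 with AZD7762. The AZD7762 ratios lay within the range of the DMSO ratios. The means were 0.437 ± 0.0412 and 0.433 ± 0.0144 (SD, n = 3), and an exact permutation test over the 20 assignments of the samples gave p = 1 (two-sided), where the smallest p it allows is 0.1.

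Of the enzymes that spend NADPH, GSR returns oxidised glutathione to its reduced form (ENSG00000104687, chromosome 8, 30535583 to 30585363, minus strand). It had 190, 184 and 169 normalized CPM with DMSO and 188, 189 and 181 with AZD7762. The AZD7762 values lay within the DMSO range, for a log2 fold change of 0.04 ± 0.06 (edgeR adjusted p = 0.882) and an interval from -6.23% to 12.8%.

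TXNRD1, the cytosolic thioredoxin reductase (ENSG00000198431, chromosome 12, 104609557 to 104744085, plus strand), had 224, 221 and 208 normalized CPM with DMSO and 208, 222 and 204 with AZD7762. The groups overlapped. TXNRD1 had a log2 fold change of -0.04 ± 0.06 (edgeR adjusted p = 0.875), and the interval ran from -11.2% to 6.34%.

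NQO1, the quinone reductase (ENSG00000181019, chromosome 16, 69740899 to 69760571, minus strand), had 15.1, 12.8 and 14.2 normalized CPM with DMSO and 15.7, 13.0 and 14.3 with AZD7762. The order of the replicates was the same in both groups, which overlapped. The log2 fold change was 0.03 ± 0.10 (edgeR adjusted p = 0.958), with an interval from -12.4% to 18.3%. A gene on the opposite strand shares 19.4% of its exon length.

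The 2 inducible genes with the lowest CPM were HMOX1 and SRXN1. HMOX1, heme oxygenase 1 (ENSG00000100292, chromosome 22, 35776354 to 35790207, plus strand), had 2.44, 2.17 and 2.68 normalized CPM with DMSO and 1.91, 1.85 and 2.25 with AZD7762. These came from 39 to 72 counts a library, and AZD7762 replicate 3 lay above DMSO replicate 2, so the groups overlapped. The log2 fold change was -0.27 ± 0.17 (edgeR adjusted p = 0.651), and the interval ran from -35.9% to 7.01%, so at this depth a fall within it could not be told from no change.

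SRXN1, sulfiredoxin (ENSG00000271303, chromosome 20, 627259 to 633844, minus strand), had 0.372, 0.221 and 1.05 normalized CPM with DMSO and 0.557, 0.333 and 0.844 with AZD7762, from 11, 6 and 22 and 14, 7 and 18 counts. Replicate 3 was the highest and replicate 2 the lowest in both groups. The log2 fold change was 0.18 ± 0.51 (edgeR adjusted p = 0.937), with an interval from -47.5% to 144%. Another gene, ENSG00000270299, covers 90.7% of its exon length on the same strand and had 1 to 7 counts a library, so the level of SRXN1 is uncertain.

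**Figure D3:**
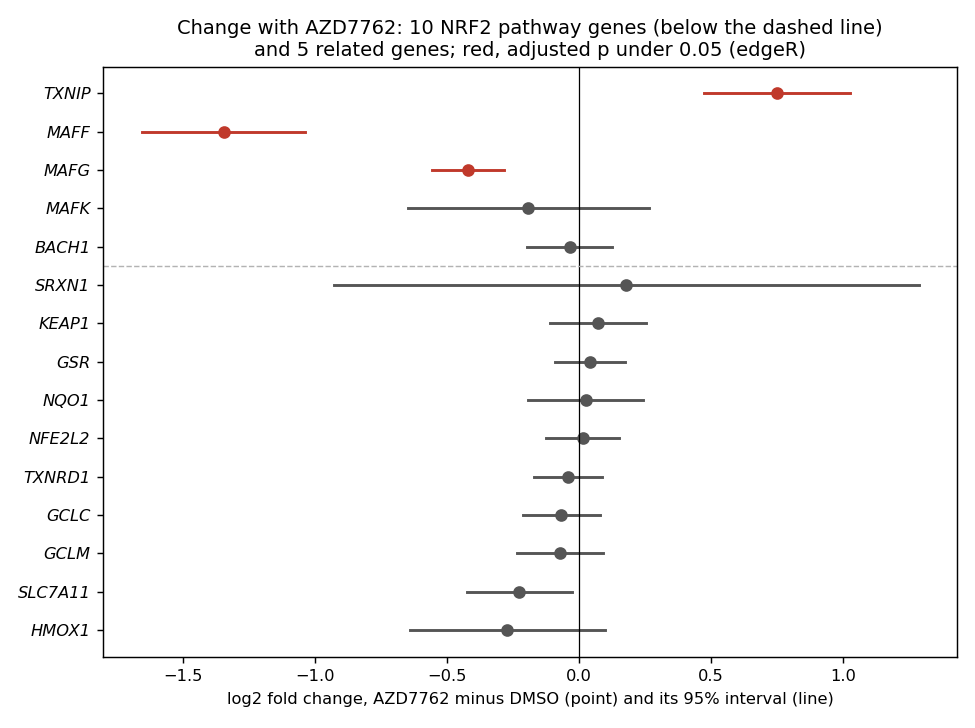
Log2 fold change of AZD7762 against DMSO (points) with its 95% interval (lines) for the 10 NRF2 pathway genes, ordered by size below the dashed line, and for BACH1, MAFK, MAFG, MAFF and TXNIP above it. Red marks an edgeR adjusted p under 0.05, which MAFG, MAFF and TXNIP reached and none of the 10 did. The interval of SRXN1 is the widest of those drawn.

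Genes around NRF2 were taken as 6 lists of 98 genes, of which 91 were tested and 3 called, namely MAFF, MAFG and TXNIP, beside 0.708% of all genes. Of the 91, 61 had a fitted value above 0 and 30 below, with a median log2 fold change of 0.05, and 9242 of all 17649 genes were above 0. At an unadjusted p under 0.05 there were 9 of the 91, near the 9.68% of all genes. In the lists below, a gene is called by edgeR's quasi-likelihood test unless another test is named.

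The partners and regulators of NRF2, a list drawn up with earlier results of these data known, held the 2 list genes called lower. Of the 12 genes, all tested, 2 were called lower and none higher, beside 0.351% and 0.357% of all genes. The median log2 fold change was -0.07, or -0.04 with GC and length trends taken out. MAFF, a small MAF without a transactivation domain (ENSG00000185022, chromosome 22, 38596774 to 38612514, plus strand), had 11.6, 8.42 and 10.6 normalized CPM with DMSO and 3.62, 4.32 and 4.13 with AZD7762. The highest AZD7762 sample was well below the lowest DMSO sample. MAFF fell by 1.35 on the log2 scale (SE 0.14, adjusted p = 0.000264, edgeR), to a fold of 0.393.

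MAFG, the more abundant small MAF (ENSG00000197063, chromosome 17, 79876146 to 79885611, minus strand), had 138, 134 and 150 normalized CPM with DMSO and 104, 101 and 110 with AZD7762. The groups did not overlap. MAFG fell by 0.42 (SE 0.06, adjusted p = 0.00503, edgeR), to a fold of 0.747, and without AZD7762 replicate 1 its adjusted p was 0.0659. MAFK, the third small MAF, had a log2 fold change of -0.19 ± 0.21 (edgeR adjusted p = 0.820), with an interval from -36.3% to 20.1%. BACH1, which competes with NRF2 for small MAFs and represses HMOX1, had -0.04 ± 0.07 (edgeR adjusted p = 0.916). Whether MAFF and MAFG changed more than MAFK was not tested.

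Other NRF2 targets, such as aldo-keto reductases, ferritins and transporters, counted 20 genes, of which 18 were tested and none called by the quasi-likelihood test or DESeq2, with a median log2 fold change of 0.04 and 2 at an unadjusted p under 0.05. The smallest p was that of ABHD4, a lipid hydrolase, at 0.30 ± 0.07 (adjusted p = 0.0698, edgeR). EPHX1, microsomal epoxide hydrolase, had 0.19 ± 0.07 (adjusted p = 0.395, edgeR). ABHD4 was called by edgeR's likelihood ratio test (adjusted p = 0.0141), its exact test (adjusted p = 0.0142) and the quasi-likelihood test without the filter on low counts (adjusted p = 0.0403). With the replicate number as a block both genes passed, at adjusted p values of 0.0144 and 0.0423, so the list had 2 calls. With trends with GC content and length also taken out, EPHX1 was at 0.12 and no longer called (adjusted p = 0.119, edgeR), and ABHD4 stayed called at 0.27.

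Glutathione synthesis, transport and use had 29 genes, of which 27 were tested and none called by the quasi-likelihood test or DESeq2, with 2 at an unadjusted p under 0.05. Their fitted values were above 0 in 23 and below in 4, with a median log2 fold change of 0.09, and 52.4% of all genes tested were above 0. With library totals as the only scaling 20 of the 27 were above 0, and 41.1% of all genes tested. With GC and length trends taken out 21 of the 27 were above 0, with a median of 0.07, and 50.8% of all genes tested. Without AZD7762 replicate 1 these values were 19 of the 27, 0.03 and 50.0%. Leaving out any other sample gave medians of 0.07 to 0.13. GPX7, a peroxidase of the endoplasmic reticulum, had 0.22 ± 0.08 (adjusted p = 0.359, edgeR), and GPX4, which reduces lipid peroxides, had 0.15 ± 0.06 (adjusted p = 0.465, edgeR), or 0.05 with GC and length trends taken out.

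Among 18 genes of thioredoxins and peroxiredoxins, 17 were tested and 1 was called higher, beside 0.357% of all genes. Their median log2 fold change was 0.08, or 0.02 with GC and length trends taken out. It was 0.02 to 0.12 leaving out 1 sample. TXNIP, which binds and inhibits thioredoxin and is known to be induced by glucose in β cells (ENSG00000265972, chromosome 1, 145438490 to 145442635, plus strand), had 5.96, 6.47 and 4.60 normalized CPM with DMSO and 9.86, 9.84 and 9.19 with AZD7762. The groups did not overlap. TXNIP rose by 0.75 on the log2 scale (SE 0.13, adjusted p = 0.0127, edgeR), and its adjusted p was 0.133 without AZD7762 replicate 1 and 0.0618 without AZD7762 replicate 2. Under the block PRDX5, a peroxiredoxin named here after its values were seen, joined it at 0.21 (adjusted p = 0.0287, edgeR), for 2 calls in the list. With GC and length trends also taken out PRDX5 was at 0.10 and no longer called (adjusted p = 0.165, edgeR).

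Superoxide and peroxide removal had 5 genes, of which 3 were tested and none called by the quasi-likelihood test or DESeq2, with 0 at an unadjusted p under 0.05. CCS, the copper chaperone of SOD1, had 0.18 ± 0.09 (adjusted p = 0.538, edgeR), and SOD1 had 0.09 ± 0.07 (adjusted p = 0.704, edgeR). With GC and length trends taken out these were 0.09 and 0.04. The 14 genes of NADPH supply were all tested and none was called by the quasi-likelihood test or DESeq2, with 1 at an unadjusted p under 0.05. Their median log2 fold change was 0.04, against 0.01 over all genes tested. With library totals only these medians were 0.0031 and -0.0276. NADK2, the mitochondrial NAD kinase, had -0.17 ± 0.07 (adjusted p = 0.477, edgeR), and ME3, a mitochondrial malic enzyme, had 0.18 ± 0.10 (adjusted p = 0.608, edgeR).

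**Figure D4:**
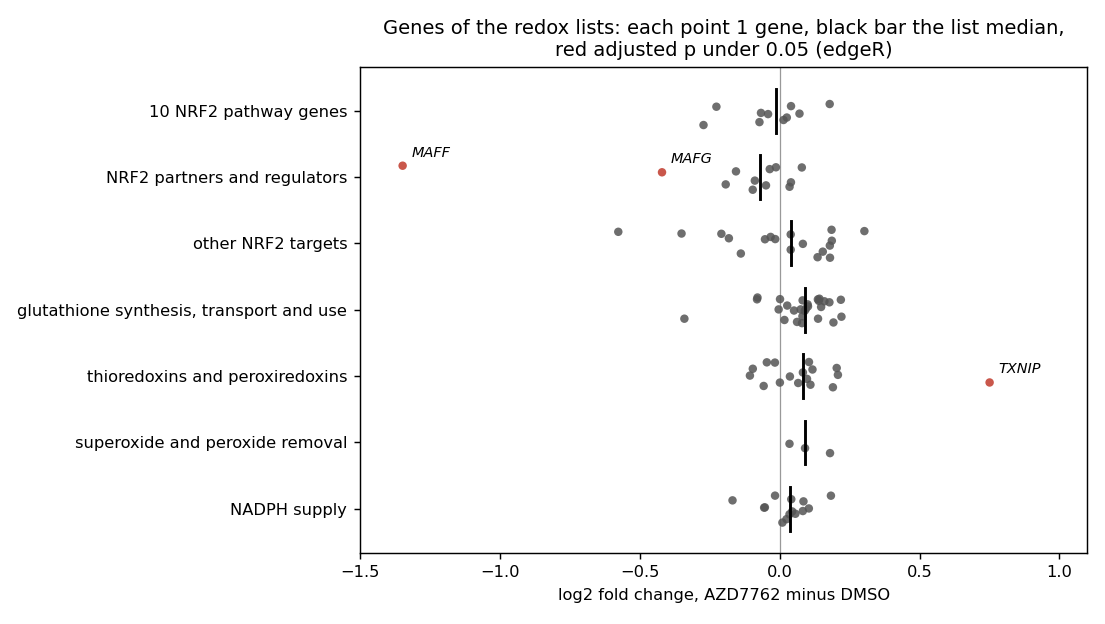
Log2 fold change of AZD7762 against DMSO for each tested gene (points) of the 10 NRF2 pathway genes and of the 6 lists around them. Black bars are list medians and red points have an edgeR adjusted p under 0.05. The medians lie between -0.07 and 0.09, and the 3 red points are MAFF, MAFG and TXNIP.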

How the data were processed

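Bulk RNA-seq of EndoC-βH1 cells, 3 DMSO and 3 AZD7762 samples grouped by their titles, was used as raw counts. The authors trimmed 51-base paired reads (FastQC 0.10.1 and cutadapt 1.18 in the submitters' notes), mapped them to GRCh37 and ran HTSeq-count per gene. The deposited counts are whole numbers without scaling. Libraries were made with either of 2 kits, 1 of them stranded, not given per sample, and whether counting used strand is not given in the sources used here, so overlaps on both strands are reported.

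Symbols, positions and lengths came from GENCODE v44 lifted to GRCh37, which is not the authors' release and matched 58646 identifiers. Counts were tested with edgeR 4.0.16 in R 4.3.3 (filterByExpr, TMM factors of 0.983 to 1.02, quasi-likelihood test, treatment alone in the model, Benjamini-Hochberg over 17649 genes, threshold 0.05, two-sided). SE is the absolute log2 fold change over the square root of F, and 95% intervals use the fit's degrees of freedom. The procedures were tested on simulated counts. Not tested were AKR1B10, ABCC3, GGT1, GPX8, MSRB3 and SOD3 for low counts and SOD2, for which no identifier matched.

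The genes and lists were chosen with earlier results of these data known. Named are the 10 genes, every called list gene or otherwise the 2 with the smallest p in a list, BACH1, MAFG, and the 5 genes most like the one of the 10 with the smallest p; the other genes named, the motif and its flank of 12 bases were chosen after values were seen.

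Whether equal replicate numbers pair the samples was checked by correlating deviations from group means. Over 15356 genes with a mean of at least 1 CPM, the same-number correlations were 0.121, 0.230 and 0.351. All were over 0.1, and the numbers were taken to pair the samples, so blocked values are printed where they change a call. Values given without mention of the block come from the model with treatment alone, which leaves this pairing out. No label states a shared day or culture. Repeated over all 17649 genes, after the blocked counts had been seen, the same-number correlations were 0.0831, 0.175 and 0.278. In both checks DMSO replicate 1 correlated best with AZD7762 replicate 2. Alternatives were other scaling, filters and tests (DESeq2 1.42.0, edgeR's likelihood ratio and exact tests), the block, lowess trends with GC content and length, and leaving out each sample.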

Additional observations from a re-analysis of the deposited data

How the results depend on the processing

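None of the 10 genes was called under any of the 17 alternatives. SRXN1 was not tested with at least 10 counts in every sample and had no adjusted p in DESeq2. The causes of the changes below were not tested. Genes called, 125, became 330 without the filter on low counts, 267 with the likelihood ratio test, 254 with edgeR's exact test, 378 with the replicate block, 249 without trends with GC content and length, and 502 with the block and without these trends, an alternative added after the calls were seen; leaving out 1 sample gave 77 (without AZD7762 replicate 1) to 168. The median log2 fold change of the 10 genes, -0.0137, was -0.0492 with library totals only, where that of all genes tested was -0.0276. For the 10 genes it was -0.0461 with a minimum of 10 counts in each sample, and -0.0699 to -0.0138 leaving out 1 sample.

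The other NRF2 targets had 1 call, ABHD4, without the filter (0.30, adjusted p = 0.0403), with the likelihood ratio test (adjusted p = 0.0141), the exact test (adjusted p = 0.0142) and without GC and length trends (0.26, adjusted p = 0.0233, or 0.0123 with the block), and 2 calls with the replicate block alone. The thioredoxins had 2 calls with the block and 0 to 1 leaving out 1 sample, and the NRF2 partners 1 to 2. Glutathione genes had 1 call, MGST3 (0.17, adjusted p = 0.0491), with the block and without GC and length trends. The block changed no other call among the genes named. Without AZD7762 replicate 1, MAFG (-0.42, adjusted p = 0.0659) and TXNIP (0.73, adjusted p = 0.133) were not called, nor was TXNIP (0.73, adjusted p = 0.0618) without AZD7762 replicate 2.

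Signs of uncalled values turned as follows. NFE2L2 was -0.00313 with upper quartile factors and -0.0218 with library totals, NQO1 -0.00926 with library totals, KEAP1 -0.0101 and BACH1 0.0104 without GC and length trends, and -0.0111 and 0.00891 when the block was added. Leaving out 1 sample, log2 fold changes were -0.0551 to 0.0424 for NFE2L2, -0.00469 to 0.143 for KEAP1, -0.0546 to 0.084 for NQO1, -0.214 to 0.94 for SRXN1, -0.00473 to 0.0723 for GSR and -0.135 to 0.0132 for BACH1. The GCLM to GCLC difference, -0.00926 on the log2 scale, was -0.0835 to 0.0528 leaving out 1 sample. By canonical transcript length NFE2L2 ranked 3 of the 10 genes.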

Other observations

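The genes whose levels followed SLC7A11 most closely over the 6 samples, among 10391 genes with a mean of at least 10 CPM, were ENSG00000261572 (Pearson's r = 0.993), RBM33 (0.993), DOK6 (0.989), ARHGAP32 (0.987) and NUDT4 (0.986), on log2(CPM + 0.5). These are descriptions over 6 samples that share the treatment split and depth, and 200 genes had an r above 0.9. None of the 5 was called between the groups, with log2 fold changes of -0.33, -0.16, -0.17, -0.27 and -0.08.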
